A study of Mus musculus with 36 samples.

Results

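Hgf, Asah1, Apcdd1, Arhgap25, Rabep1, Snhg18, Bcar1, Gpr182, Ccbl1 and Zfp945 are 10 of the 24421 gene symbols measured in mouse hippocampus. They were chosen by their shifts between treated and untreated old mice, so the values of that comparison describe the choice and are given without a test. 5 of them (Hgf, Asah1, Arhgap25, Rabep1 and Zfp945) lay higher in the treated old mice, and the other 5 lay lower. All were measured again under the same kind of treatment in APP/PS1 mice, where none passed the test with limma. Of all 16124 genes tested there, 0% passed.

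The aging arm held C57BL/6 mice: young controls of 8 months, old controls of 18 months, and old mice of 18 months given a nanoligomer. All mice of the other arm were 4 months old, and they were "non-carrier" littermates, APP/PS1 controls, which carry transgenes that raise amyloid, or APP/PS1 mice given a nanoligomer. The series title names lowering of NF-kB, a transcription factor family of inflammation, and NLRP3, an inflammasome sensor. Each of the 6 groups had 6 libraries, 3 of females and 3 of males. Not given in the sources used here are the nanoligomer's sequence, dose and duration, the APP/PS1 line, the promoters of its transgenes and whether each library is 1 mouse, so p-values measure only the spread between these libraries, which may be technical.

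Depth was 27.6 to 46.3 M reads in 35 libraries and 0.913 M in treated APP/PS1 female 3. That library had 0 reads for 8 of the 10 genes. It had 95 reads of Hgf, or 104 CPM (reads of a gene scaled to the same total in each library), against 0.898 to 6.82 CPM in the other libraries, and 79 reads of Zfp945. It was left out below unless it is named. App, which encodes the amyloid precursor protein, was higher in APP/PS1 than in littermate libraries, with a log2 fold change of 1.08 (limma adjusted p = 0.00162) and no overlap between the groups. Markers of hippocampal CA3 and CA1 neurons were present in every group. Striatum markers summed to over 800 CPM in 5 libraries (treated old female 3, old male 3, young male 2, APP/PS1 female 1 and treated APP/PS1 male 2), with a high of 3318 CPM in treated old female 3.

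The genes belong to separate pathways. Hgf encodes hepatocyte growth factor, a secreted ligand of the receptor kinase Met, which acts on survival and growth of neurons and other cells. Asah1 encodes acid ceramidase, the lysosomal enzyme that splits ceramide into sphingosine and a fatty acid, and Rabep1 encodes rabaptin, a partner of the small GTPase Rab5 in fusion of early endosomes. Arhgap25 encodes a protein that switches off Rac, mainly known from blood cells. Apcdd1 encodes a membrane inhibitor of Wnt signalling, Gpr182 an endothelial receptor that scavenges chemokines, Bcar1 the adhesion scaffold p130Cas, and Ccbl1 (also Kyat1) a kynurenine aminotransferase. Snhg18 is a long non-coding RNA that hosts a small nucleolar RNA, and Zfp945 encodes a zinc finger protein.

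The genes spanned a wide range of abundance. Per kilobase of annotated exon, the mean level was 17.9 CPM for Bcar1, 14.9 for Rabep1 and 11.3 for Asah1, and 0.512 for Hgf. On GRCm38, with GENCODE annotation, Hgf spans chr5:16553495-16620152 on the plus strand and Arhgap25 spans chr6:87458545-87533259 on the minus strand. Gpr182 spans chr10:127747276-127751732 and Snhg18 chr15:32240565-32244662, both on the minus strand. Exons of Hgf share 484 bases with the predicted gene Gm43489 on the same strand. Rabep1 shares 48 exon bases with Nup88 and Gpr182 shares 74 with Zbtb39, each on the opposite strand. Reads of such stretches cannot be assigned with certainty, and neither can reads that Zfp945 may share with related zinc finger genes.

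Promoter windows of RefSeq (GRCm38.p6), of 250 bases before an annotated start, were found for Hgf, Arhgap25, Snhg18, Bcar1, Ccbl1 and Zfp945. 1 window of Hgf, which had the clearest shift, and that of Snhg18, whose divergent neighbour is described below, are shown 5′ to 3′ on the strand of the gene. Capitals mark GC boxes (GGGCGG on either strand). The Hgf window shown is chr5:16553245-16553494 and the Snhg18 window is chr15:32244663-32244912. Another Hgf window, chr5:16553651-16553900, before a later annotated start, is not shown (51.2% G and C, no GC box).
Hgf: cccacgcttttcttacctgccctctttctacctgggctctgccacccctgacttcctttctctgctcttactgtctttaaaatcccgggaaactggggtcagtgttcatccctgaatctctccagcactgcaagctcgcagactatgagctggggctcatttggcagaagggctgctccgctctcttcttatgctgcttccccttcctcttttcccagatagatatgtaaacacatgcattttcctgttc
Snhg18: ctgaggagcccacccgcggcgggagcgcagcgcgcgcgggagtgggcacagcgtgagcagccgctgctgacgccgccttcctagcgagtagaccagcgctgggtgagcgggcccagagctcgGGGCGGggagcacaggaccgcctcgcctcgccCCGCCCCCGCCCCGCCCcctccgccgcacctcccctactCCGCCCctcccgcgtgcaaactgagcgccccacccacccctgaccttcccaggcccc
The Snhg18 window had 77.2% G and C and 5 GC boxes, counted with overlaps: 3 of them stand in 1 run, of which one pair adjoins and the next pair shares a base, and the Hgf window had 50.8% and none. The median over 32851 windows of all genes was 52.4%, and 32.7% of those windows held a GC box. The NF-kB motif was searched by its consensus on both strands and matched no window of these 6 genes, where 7.25% of all windows held it. No match says only that those letters are not in these windows.

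The plot of CPM by library shows each gene in all 6 groups. The treated old libraries are set apart from the old ones for most genes, and both the young and the APP/PS1 libraries spread widely for Hgf and Arhgap25.

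**Figure D1:**
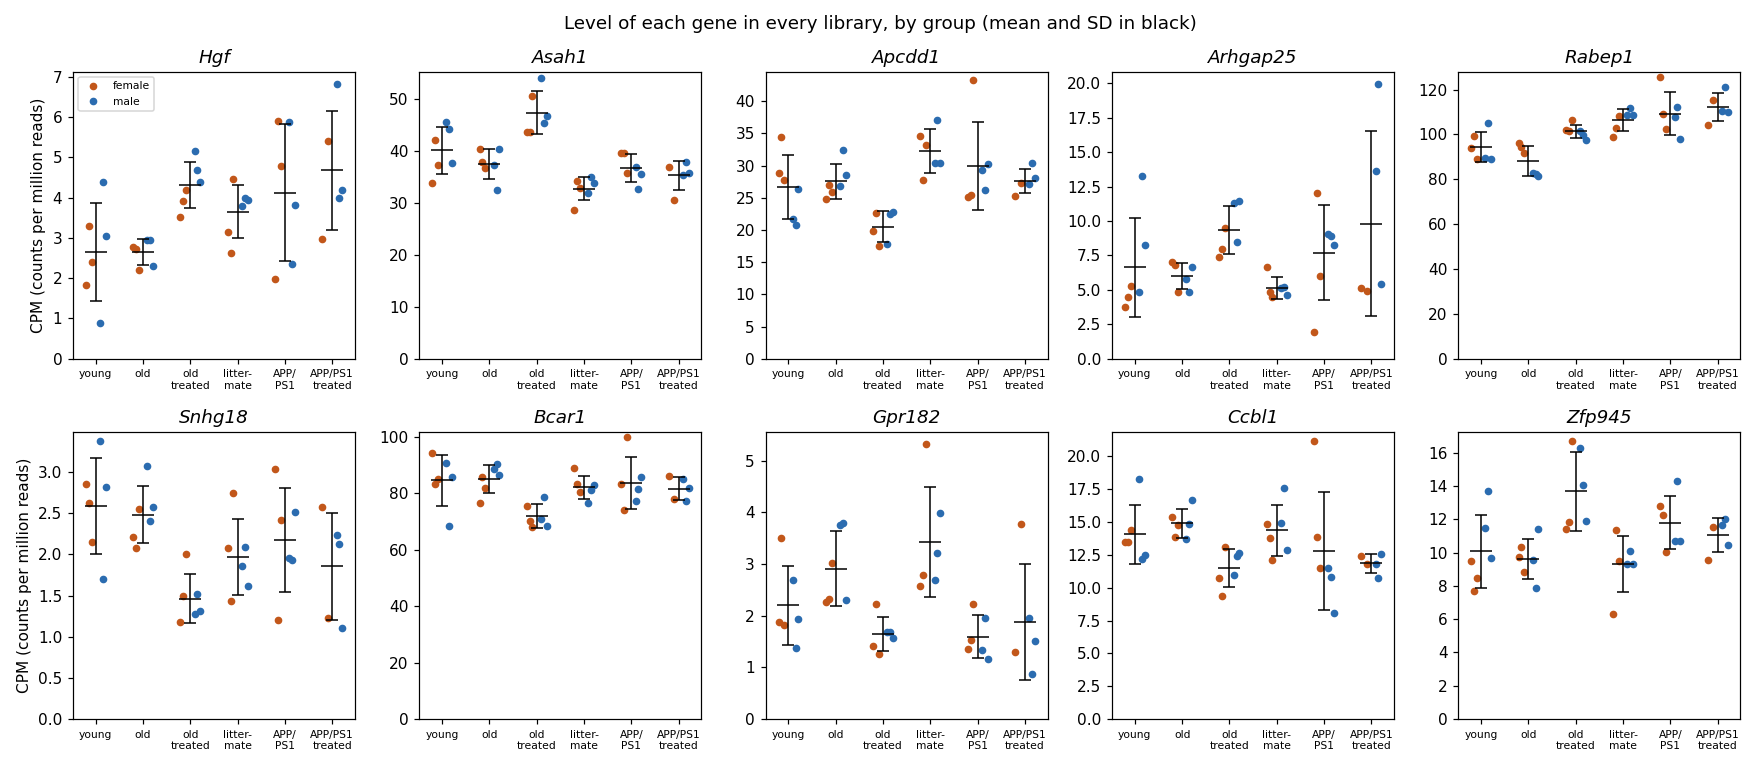
Level of the 10 genes in CPM (linear axis from 0) in 35 libraries, by group, with females in orange, males in blue and the mean and SD in black; treated APP/PS1 female 3 is not drawn. Hgf lies between 3.53 and 5.17 CPM in treated old mice and between 2.21 and 2.95 CPM in old mice.

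The following values are counts normalized by the authors within 1 table of treated old and old libraries. Hgf, the ligand, ranged from 84.0 to 113.8 in old mice, with a median of 102.7. In treated old mice it ranged from 133.4 to 195.6, with a median of 160.3. Every treated library lay above every old one. The values of Hgf rest on 85 to 177 reads a library. The means were 100.1 ± 12.1 and 162.6 ± 22.4 (SD, n = 6 each), a log2 difference of 0.69 ± 0.131 (SE) or 1.62-fold, which ranked first among 16517 genes by its ratio to the standard error. Old females and males had means of 96.5 and 103.8. Treated females and males had 144.7 and 180.6, and all 3 treated males were above all 3 treated females.

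Asah1, the ceramidase, ranged from 1255 to 1528 (median 1399) in old mice and from 1649 to 2040 (median 1752) in treated old mice. The groups did not overlap, and the log2 difference was 0.33 ± 0.0717 (SE). Rabep1, the Rab5 partner, ranged from 3085 to 3623 (median 3335) in old and from 3731 to 3867 (median 3843) in treated old mice, a small difference of 0.20 ± 0.0475. Its old females, at 3487 to 3623, lay above its old males, at 3085 to 3183. Its treated libraries of both sexes lay close together, with a coefficient of variation of 1.36% against 7.10% in old mice.

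Arhgap25, the Rac inactivator, ranged from 185.5 to 265.1 (median 234.2) in old mice and from 280.8 to 440.5 (median 332.3) in treated old mice. The groups did not overlap, and 2 treated males, at 427.4 and 440.5, stood above the other treated libraries. The log2 difference was 0.63 ± 0.143 (SE). Zfp945 ranged from 303.5 to 431.9 (median 361.6) in old and from 430.9 to 615.7 (median 492.9) in treated old mice. The old male 3, at 431.9, lay above the lowest treated library by a small margin, so these groups overlapped, and the log2 difference was 0.50 ± 0.121 (SE).

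Gpr182, the chemokine scavenger, had the largest difference of the 5 genes that lay lower. It ranged from 85.2 to 146.7 (median 101.0) in old mice and from 45.9 to 84.7 (median 62.0) in treated old mice. The groups adjoined without overlap, and the highest treated library, female 2, lay next to the lowest old one. The log2 difference was -0.80 ± 0.202 (SE). These values rest on 48 to 148 reads a library.

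Snhg18 ranged from 77.3 to 114.9 (median 94.99) in old mice and from 44.5 to 72.7 (median 53.5) in treated old mice, with no overlap. The log2 difference was -0.77 ± 0.177 (SE), on 40 to 121 reads a library. Treated female 3 was the highest treated library, and the other 5 lay between 44.5 and 57.4.

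Apcdd1, the Wnt inhibitor, ranged from 933 to 1256 (median 1003) in old and from 640.0 to 875 (median 799.8) in treated old mice, a log2 difference of -0.43 ± 0.0939 (SE). Ccbl1, the aminotransferase, ranged from 513.0 to 633 (median 569) in old and from 354 to 485 (median 443) in treated old mice, a difference of -0.38 ± 0.0943. Neither gene's groups overlapped. Bcar1, the adhesion scaffold, ranged from 2881 to 3495 (median 3225) in old and from 2470.0 to 2980 (median 2671) in treated old mice. Treated male 2, at 2980, lay above old female 1, at 2881, so its groups overlapped, with a log2 difference of -0.24 ± 0.0580 (SE).

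Thus 8 of the 10 genes had groups that did not overlap, the exceptions being Bcar1 and Zfp945. Over all genes tested 0.254% had such groups, and since this comparison chose the genes, nothing is read from that count. Their ranks lay between 1 and 13 of 16517.

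The makeup of the treated old libraries differed too. All 10 CA3 and CA1 markers had negative log2 differences (median -0.51), as had all 10 meningeal and perivascular fibroblast markers (median -0.43), and 9 of 10 striatum markers had positive ones (median 0.61). Dentate granule cell markers had the largest median difference of the 11 marker lists, -0.85 with 8 of 10 negative, and all 10 oligodendrocyte markers were negative (median -0.21). The fibroblast markers summed to 183.2 to 211.5 CPM in old and 108.0 to 208.1 CPM in treated old libraries, the CA3 and CA1 markers to 755 to 1751 and 675 to 1696, the striatum markers to 234 to 884 and 248 to 3318, and the dentate markers to 522 to 849 and 396 to 650.1. No marker of these lists was at 0 in any group. In bulk tissue fewer cells of a type and less RNA per cell cannot be told apart. Microglia markers were evenly split, 5 higher and 5 lower (median -0.01), and 8 of 10 endothelial markers were lower (median -0.12). The medians of the other 4 lists (astrocyte, oligodendrocyte precursor, choroid plexus and blood cell) lay between -0.02 and 0.12.

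The differences were recomputed with the striatum, CA3 and CA1 and fibroblast markers in view, as alternatives chosen after seeing the data. The part of the dentate and oligodendrocyte markers in the differences was not tested. Without the libraries over 800 CPM of striatum markers, the log2 difference was 0.61 for Hgf, 0.64 for Arhgap25, -0.87 for Snhg18 and -0.83 for Gpr182. With striatum and CA3 and CA1 marker levels as covariates it was 0.70, 0.51, -0.78 and -0.70. With the fibroblast marker level as a covariate it was 0.76 for Hgf, 0.42 for Arhgap25, -0.67 for Snhg18 and -0.53 for Gpr182. The signs of all 10 genes were the same under these 3 alternatives. Since these libraries chose the genes for clear shifts, nothing is read from the kept signs.

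The levels of the genes also moved with marker levels among libraries of the same group and sex. Over 35 libraries, Gpr182 had its highest correlation with the fibroblast markers (r = 0.61) and Bcar1 with the astrocyte markers (r = 0.73). Rabep1 had an r of -0.64 with astrocyte and 0.61 with striatum markers. Asah1 and Zfp945 had values of 0.51 and 0.50 with striatum markers and of -0.58 and -0.53 with CA3 and CA1 markers. Hgf had an r of 0.31 with microglia markers and of -0.50 with those of oligodendrocyte precursors. These points share library depth and dissection, and the values are a description.

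**Figure D2:**
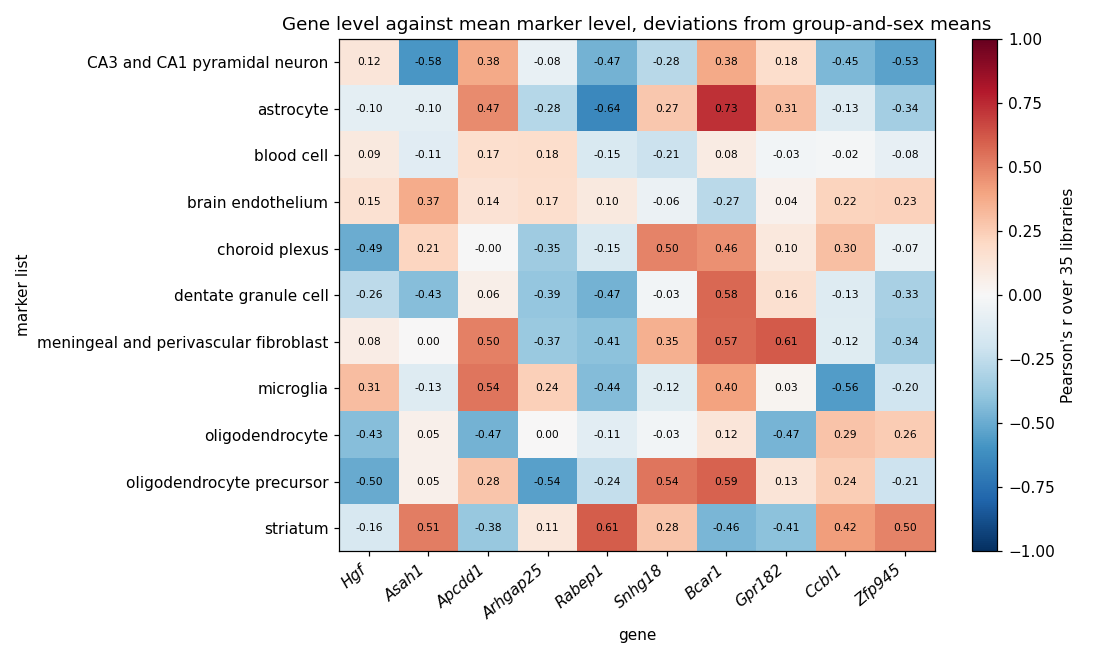
Pearson's r over 35 libraries between each gene's level (columns) and the mean level of each marker list (rows), both as log2(CPM + 1) after subtracting each group-and-sex mean; red is positive and blue negative. Bcar1 with astrocyte markers is the highest value, 0.73, and Rabep1 with astrocyte markers the lowest, -0.64.

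Old and young mice were set side by side in another table, which shares the old libraries. Hgf ranged from 33.8 to 181.9 (median 109.6) in young and from 89.9 to 121.6 (median 109.9) in old mice, a wide spread in the young group around a like median. Arhgap25 ranged from 152.9 to 549 (median 198.1) in young and from 198.6 to 283 (median 250.7) in old mice. The high young library was male 2, 1 of the 5 libraries with high striatum markers. Gpr182 ranged from 57.2 to 139.4 (median 77.4) in young and from 91.0 to 156.8 (median 108.1) in old mice, and its log2 difference, 0.44 ± 0.233 (SE), was the largest of the 10. The others lay between -0.08 and 0.17. Groups overlapped for all 10 genes, where 0.505% of all genes had groups that did not. All 10 choroid plexus (median -1.94) and striatum markers (-0.57) were lower in old libraries. All 10 blood cell (0.54), microglia (0.32), CA3 and CA1 (0.28) and oligodendrocyte markers (0.19) were higher. The part of the choroid plexus, blood cell, microglia and oligodendrocyte markers in these values was not tested.

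Whether the treatment shifted the same genes in other mice was examined in APP/PS1 libraries, 5 treated against 6 control. Hgf ranged from 51.4 to 166.9 (median 118.3) in the controls, and the treated libraries had 82.2 and 145.6 in females and 195.8, 116.0 and 117.7 in males. The groups overlapped widely, and the log2 difference was 0.25 with 95% limits of -0.50 and 0.996. Those limits hold 0, and also hold the difference of 0.69 seen in old mice. Leaving out 1 library at a time gave 0.06 (without control female 1) to 0.42 (without treated female 1).

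Asah1 ranged from 928 to 1115 in APP/PS1 controls and from 824 to 1099 in treated APP/PS1 mice, with a log2 difference of -0.04 (95% limits -0.22 to 0.14). The limits leave out the 0.33 of the treated old mice. Apcdd1 differed by -0.08 (-0.37 to 0.22), Bcar1 by -0.01 (-0.18 to 0.16) and Ccbl1 by 0.00 (-0.37 to 0.37). Zfp945 differed by -0.08 (-0.34 to 0.19). For Apcdd1, Bcar1, Ccbl1 and Zfp945 as well, the limits leave out the value in old mice. For Ccbl1 they do so narrowly, at -0.371 against -0.379. The limits in old mice overlap those in APP/PS1 mice for Apcdd1, Bcar1 and Ccbl1, and not for Asah1 and Zfp945. Whether the effects of treatment in old and APP/PS1 mice differ was not tested, since the old value chose the genes. Nothing is read from which limits hold or leave out an old value, here or for the other genes.

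Snhg18 differed by -0.23 (-0.91 to 0.45), Rabep1 by 0.06 (-0.09 to 0.21) and Arhgap25 by 0.20 (-0.78 to 1.19), limits that hold the values in old mice. For Snhg18 leaving out 1 library gave -0.42 (without treated female 1) to -0.06 (without treated female 2). Arhgap25 had 142.9 and 132.9 in the treated females and 390.9, 578.7 and 151.9 in the treated males, against 50.0 to 339.3 in controls. Its lowest control, female 1, and its highest treated library, male 2, were both among those with high striatum markers. Without them the log2 difference was -0.36. Gpr182 ranged from 32.6 to 60.1 in controls and had 35.9 and 101.6 in treated females and 56.3, 25.3 and 42.7 in treated males, a difference of 0.16 (-0.58 to 0.89). Its limits leave out the -0.80 of old mice but overlap the limits there (-1.24 to -0.37). Its sign rests on treated female 2, at 101.6, without which the difference was -0.14.

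None of the 10 genes passed the limma test under treatment of APP/PS1 mice (adjusted p of 0.997 or above), nor at an unadjusted p under 0.05. Of all 16124 genes tested, 0% passed with limma and 2.96% had an unadjusted p under 0.05. EdgeR called 0 of the 10 and 0% of all genes. DESeq2 called 0 of the 10 and 0.0434% of all genes. For none of the 10 did the groups keep apart, which 0.31% of all genes did. All 10 choroid plexus markers were higher in the treated APP/PS1 libraries (median log2 difference 2.41, sums of 20.2 to 96.0 CPM in controls and 66.3 to 4058 CPM in treated), and the part of that difference in these values was not tested. All 10 striatum (median -0.32), oligodendrocyte precursor (-0.19), astrocyte (-0.13) and oligodendrocyte markers (-0.13) were lower, as were 9 of 10 microglia markers (-0.19) and 9 of 10 endothelial markers (-0.07).

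**Figure D3:**
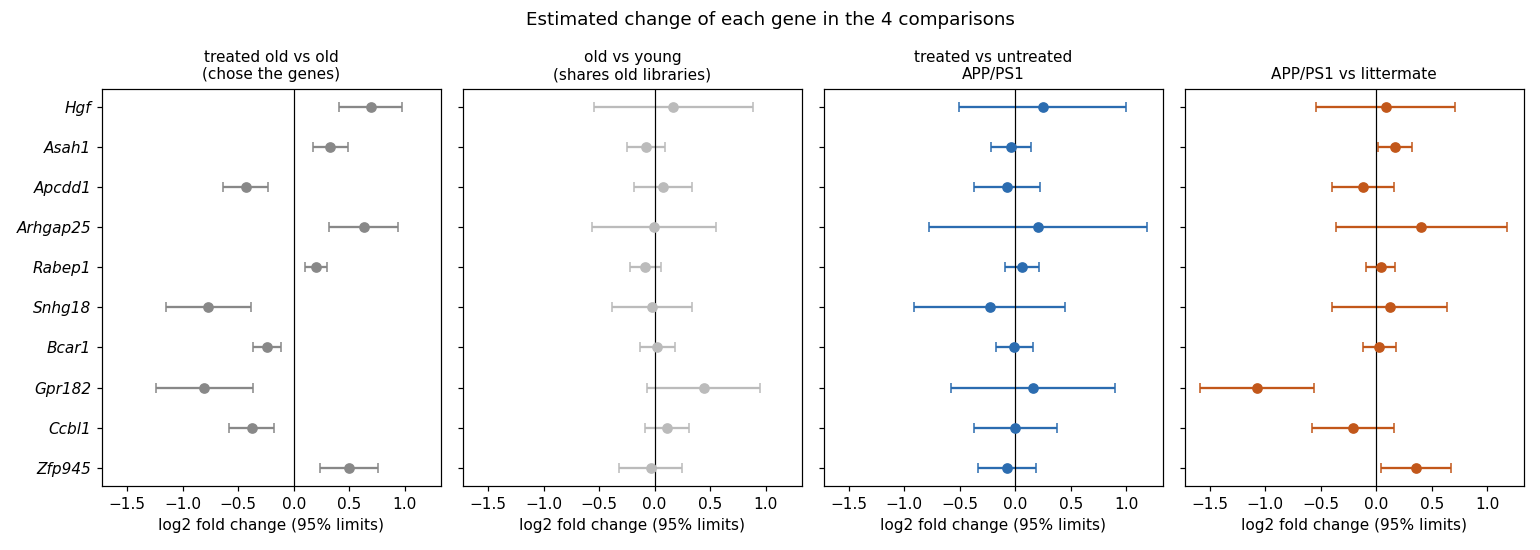
Log2 fold change of each gene with 95% limits in the 4 comparisons; grey marks the comparison that chose the genes, pale grey the one that shares its old libraries, blue treated against control APP/PS1 mice and orange APP/PS1 against littermate mice. In the treated APP/PS1 mice the limits of all 10 genes include 0, and Gpr182, at -1.07 in APP/PS1 against littermate mice, has the largest shift there.

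APP/PS1 and littermate mice gave a further comparison that did not enter the choice, though it shares the APP/PS1 control libraries with the one before. Gpr182 showed the clearest separation. Littermates had 91.7, 103.1 and 194.2 normalized counts in females and 98.8, 117.6 and 146.5 in males. APP/PS1 mice had 46.4, 57.2 and 80.5 in females and 50.0, 74.2 and 43.1 in males. Every APP/PS1 library lay below every littermate library, in both sexes.

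The means of Gpr182 were 125.3 ± 38.9 in littermates and 58.6 ± 15.4 in APP/PS1 mice (SD, n = 6 each). The log2 fold change was -1.07 ± 0.238 (SE), with 95% limits of -1.59 and -0.56. Adjusted over all genes it did not pass with limma (unadjusted p = 0.000615, adjusted p = 0.182) or edgeR (adjusted p = 0.166), and it passed with DESeq2 (adjusted p = 0.00731). Over the alternatives its adjusted p lay between 0.00731 and 0.529, and without APP/PS1 female 3 limma called it (adjusted p = 0.0345).

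Fibroblast markers moved the same way as Gpr182: all 10 were lower in APP/PS1 libraries (median -0.67), summing to 191.6 to 380.8 CPM in littermates and 139.7 to 251.1 CPM in APP/PS1 mice. Choroid plexus markers were also lower, 10 of 10 with a median of -0.89, as were 8 of 10 dentate (median -0.82) and 9 of 10 CA3 and CA1 markers (median -0.52). The part of the choroid plexus and dentate markers in the value of Gpr182 was not tested. With the level of the fibroblast markers as a covariate the log2 fold change of Gpr182 was -0.74 (limma adjusted p = 0.529). All 10 striatum markers were higher in APP/PS1 libraries (median 1.09, sums of 233 to 274 against 266 to 3178 CPM), and with striatum and CA3 and CA1 levels as covariates the value was -0.84 (limma adjusted p = 0.406). Of 10 endothelial markers, 6 were higher and 4 lower (median 0.04).

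Asah1 and Zfp945 were nominally higher in APP/PS1 mice. Asah1 had means of 1196 ± 93.0 in littermates and 1344 ± 80.8 in APP/PS1 mice, a log2 fold change of 0.17 ± 0.0719 (SE; limma adjusted p = 0.444). Zfp945 had 340.7 ± 63.9 and 433 ± 62.5, a change of 0.36 ± 0.146 (SE; limma adjusted p = 0.428). Their groups overlapped. The other 7 genes had log2 fold changes between -0.21 for Ccbl1 and 0.40 for Arhgap25. Leaving out 1 library gave 0.17 (without APP/PS1 female 2) to 0.78 (without APP/PS1 female 1) for Arhgap25, and -0.35 (without APP/PS1 female 1) to -0.10 (without APP/PS1 male 3) for Ccbl1.

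In that comparison 0 of the 10 genes passed with limma, where 0.0486% of all genes did. At an unadjusted p under 0.05 there were 3 of 10, where 10.2% of all genes had one. EdgeR called 0 of 10 (0.0486% of all genes) and DESeq2 called 1 of 10, Gpr182 (1.55% of all genes). Groups did not overlap for 1 of 10, again Gpr182, and for 0.85% of all genes.

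The sexes were compared within the same 12 APP/PS1 and littermate libraries. None of the 10 genes passed with limma (0.0486% of all genes), edgeR (0.0486%) or DESeq2 (0.255%), and none had an unadjusted p under 0.05 (6.13% of all genes). The largest difference was that of Arhgap25, -0.37 for females minus males (95% limits -1.15 to 0.40). The effect of the transgenes or of treatment of APP/PS1 mice differed between the sexes for 0 genes with limma. The smallest p among the 10 was that of Ccbl1, whose log2 fold change in APP/PS1 mice was 0.13 in females and -0.55 in males, an unadjusted p of 0.0433 and a limma adjusted p of 0.847.

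The nearest measured genes on the chromosome were compared in treated old and old mice, again without a test. Of these neighbours, Sema5a stands closest to a shifted gene. It is a semaphorin gene on the opposite strand to Snhg18, and the 2 gene ends are 148 bases apart, so its start lies within the Snhg18 window printed above. Sema5a and the neighbours Tac2 and Cfdp1 are singled out here after their values were seen.

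Sema5a ranged from 1140 to 5639 (median 4744) in old and from 1234 to 3736 (median 1847) in treated old mice. Its log2 difference was -0.92 ± 0.393 (SE), of the same sign as that of Snhg18. The old median lay above every treated library, and the groups overlapped through low values in the old group. In APP/PS1 mice treatment gave 0.12 for Sema5a (limma adjusted p = 0.997) and -0.23 for Snhg18. APP/PS1 against littermate mice gave -0.44 for Sema5a (limma adjusted p = 0.408) and 0.12 for Snhg18. Sema5a and Snhg18 thus had opposite signs in both of these comparisons, where the limits of Snhg18 hold 0. Tac2, a neuropeptide gene 15.5 kb from Gpr182, differed by 0.86 ± 0.269 and Cfdp1, 24.7 kb from Bcar1, by 0.21 ± 0.0723, both opposite in sign to their neighbour. Both neighbours of Hgf lay near 0, at 0.06 for Cacna2d1 and 0.10 for Sema3c.

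**Figure D4:**
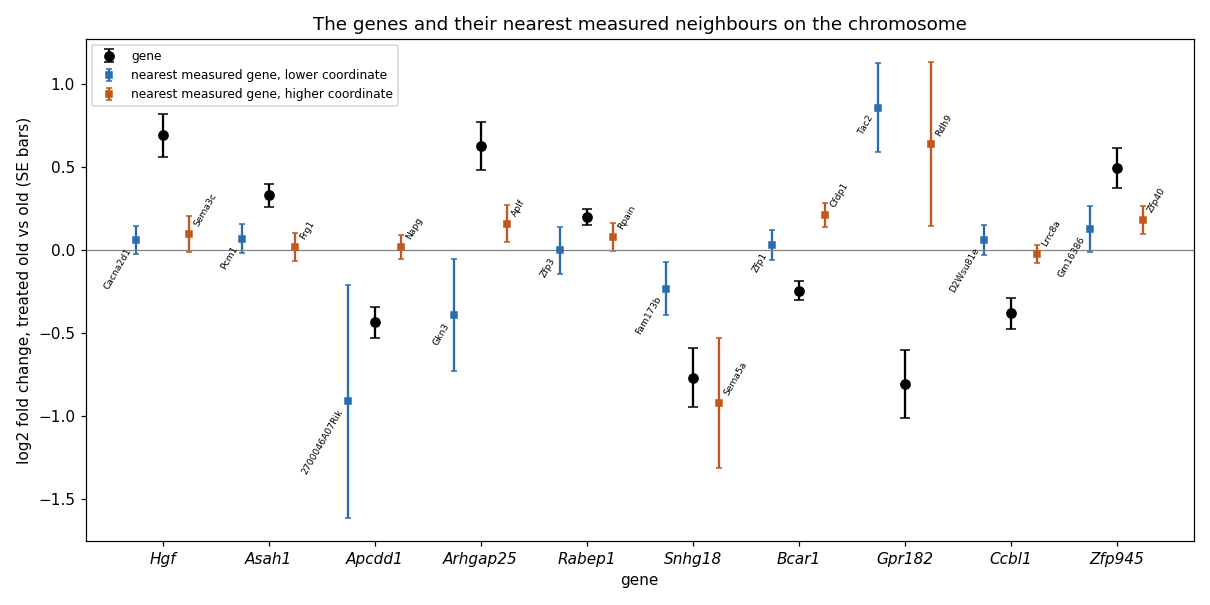
Log2 fold change with SE bars in treated old against old mice for each gene (black) and its nearest measured gene at the lower (blue) and higher (orange) coordinate. Sema5a (-0.92) lies near Snhg18 (-0.77), and the neighbours of Hgf (0.06 and 0.10) lie near 0.

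The genes most like each of the 10 in level were found by Pearson's r of log2(CPM + 1) over 35 libraries. The mean of each group and sex was removed first. Genes at low levels, genes sharing exon bases with the gene in question and genes with placeholder names, such as Gm or Rik symbols, were left out. The values are the highest among the genes kept, in libraries that share depth and dissection, and are a description. For Hgf the genes most alike were Mertk (r = 0.80), Sult2b1 (0.79) and Coro1a (0.75). For Arhgap25 they were Tuba4a (0.90), Hkdc1 (0.88) and Etv5 (0.88). Gpr182 had lower values, with Slc19a2 (0.74), Slc35e3 (0.71) and Bace1 (0.70). Apcdd1 had Mylk (0.83), Grn (0.82) and Osmr (0.78), and Bcar1 had B4galt1 (0.84), Pdlim4 (0.83) and Lgals3 (0.82). Asah1 had Nsmce2 (0.78), Rabep1 had Cd163 (0.79), Snhg18 had Rdh5 (0.76), Ccbl1 had Vps11 (0.84) and Zfp945 had Gpr158 (0.82) as the first.

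Among themselves the 10 genes moved together only loosely. In the 23 libraries of the other 4 groups, the 20 pairs of genes that shifted the same way in treated old mice had a median r of 0.10, from -0.41 to 0.59. The 25 pairs that shifted in opposite ways had a median r of -0.24, from -0.65 to 0.29.

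Genes of the same pathways gave the setting for each. Of 22 tested genes of HGF and Met signalling, 10 had positive and 12 negative log2 differences in treated old mice (median -0.06). Met, the receptor of Hgf, differed by 0.18 ± 0.323 (SE), and St14, a protease that activates the Hgf precursor, by -1.09 ± 0.684. Spint1, an inhibitor of such proteases, differed by -0.49 ± 0.306. In treated APP/PS1 mice the list had a median of -0.01 and 0 of 22 genes passed with limma, where 0% of all genes did.

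Of 33 sphingolipid genes, 14 were positive and 19 negative in treated old mice (median 0.00), with Smpd1, the acid sphingomyelinase, at -0.03 ± 0.0692 and Sgpl1, the sphingosine phosphate lyase, at 0.00 ± 0.0748. Of 23 genes of Rab5 endosomes, 13 were positive (median 0.00), with Rab5a at 0.02 ± 0.0683. Of 18 Rac regulators of blood cells and microglia, 4 were positive and 14 negative (median -0.15), where Arhgap25 itself lay higher. Of 28 Wnt genes 10 were positive (median -0.05), with Wnt3 at -0.48 ± 0.310, Wnt5a at -0.33 ± 0.236 and Wnt7a at 0.32 ± 0.148. Over all genes tested 49.0% were positive, with a median of 0.00.

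Of 16 other snoRNA host genes 9 were positive (median 0.02), with Snhg1 at 0.12 ± 0.119. Of 23 adhesion scaffold genes 8 were positive (median -0.07), and Ptk2, the focal adhesion kinase, differed by 0.20 ± 0.0814, opposite in sign to Bcar1. Of 11 atypical chemokine and adrenomedullin receptors 4 were positive (median -0.04), with Ackr2 at 0.51 ± 0.402 and Ackr3 at -0.10 ± 0.131. Of 14 kynurenine and sulfur amino acid enzymes 5 were positive (median -0.09), with Ccbl2, another such aminotransferase, at -0.19 ± 0.219. In treated APP/PS1 mice and in the comparison of APP/PS1 with littermate mice 0 genes of any of these lists passed with limma. Of all genes tested, 0% and 0.0486% passed in these comparisons, so nothing is read from that count.

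The genes of the targets named in the series title had these differences in the treated old mice. Nfkb1 differed by -0.09 ± 0.0916 (SE), Rela by -0.08 ± 0.0817 and Nlrp3, with wide limits of -0.47 to 0.79, by 0.16 ± 0.293. In treated APP/PS1 mice the values were -0.06, -0.08 and 0.00 (limma adjusted p of 0.997 or above).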

How the data were processed

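Polyadenylated RNA of hippocampus was sequenced in 36 libraries, per the labels' protocols. STAR, DESeq2 and the build mm10 appear, with no version or role, per the submitters' processing notes. The authors deposited 4 tables of 12 libraries each, whose signal values are counts normalized within each table; 12 libraries stand in 2 tables. 100% of values were within 0.001 of whole reads once divided by their library's step, and reads and CPM come from these. 0 columns were left out, and 1 column name, that of treated APP/PS1 male 3, is 1 letter off its sample's title.

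Limma 3.58.1 (R 4.3.3) was fitted with an intensity trend within each table to log2(normalized count + 1) of genes whose mean was 10 or more; sex and group were the terms, and p-values were Benjamini-Hochberg adjusted over all genes tested (threshold 0.05). Fold changes are on that scale, with 95% limits. EdgeR 4.0.16 and DESeq2 1.42.0 were run on recovered reads. Alternatives changed the filter, pseudocount, scaling, trend, terms and tool, left out each library in turn, or used marker levels. The scripts were tested on simulated data. The 10 genes and all lists were chosen with earlier results of these data known. Genes named are the 10, the first 3 measured genes of each list, the nearest measured neighbours, and the 3 kept genes with the highest r. Not all are printed. Treated APP/PS1 female 3 stands in the authors' table of that comparison and was dropped after their scaling. An item withheld for evaluation is not reported here.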

Additional observations from a re-analysis of the deposited data

Results flagged for a closer look

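Of 60 sets checked (each gene in each group), 1 had a library far from the others: Arhgap25 in littermate female 1 had 238.0 normalized counts, where the nearest littermate library had 190.3, a gap of 0.632 of the group's range. Chance flags about 5% of groups.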

How the results depend on the processing

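Each gene's log2 fold change was recomputed under 24 alternatives in each comparison. In treated old mice the 240 values kept their sign, and 1, Ccbl1 with the fibroblast covariate (-0.53), moved by more than the spread of old libraries. That comparison chose the genes, so nothing is read from the kept signs. Between old and young mice some values near 0 crossed it, such as Hgf (-0.16 to 0.39). In treated against untreated old mice, leaving out 1 library gave 0.63 to 0.73 for Hgf and -0.93 to -0.73 for Gpr182. The number of genes called by limma was 0 for treatment of APP/PS1 mice, 8 for the transgenes and 8 for sex. DESeq2 called 7, 256 and 42. The transgene count was 21 without APP/PS1 female 1, its only library with high striatum markers, 4 with the fibroblast covariate and 10 with a replicate block, and leaving out 1 library gave 0 to 0, 6 to 256 and 8 to 10. It was 256 without APP/PS1 female 3. The cause was not tested. Libraries with the same sex and number in 2 groups had correlations of their deviations between -0.247 and 0.294, so the numbers were not taken to pair them, and the replicate block changed no call of the 10 genes.

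In the treated APP/PS1 mice 27 of 240 values changed sign, all from estimates whose limits hold 0. With treated female 3 kept, Arhgap25 was -1.005, Rabep1 -1.87, Gpr182 -0.81, Ccbl1 -1.42 and Zfp945 0.31, and Hgf, which kept its sign, was 0.90. With the replicate block, Apcdd1 was 0.0363, Bcar1 0.0386 and Ccbl1 -0.0531. Ccbl1 was -0.0001 with a pseudocount of 5, -0.0272 without the sex term, -0.0209 with edgeR, -0.0146 with DESeq2 and -0.027 with the fibroblast covariate. Arhgap25 was -0.36 without libraries with high striatum markers. Leaving out 1 library gave -0.0756 to 0.0391 for Asah1, -0.131 to 0.0363 for Apcdd1, -0.0713 to 0.476 for Arhgap25, -0.0348 to 0.0386 for Bcar1, -0.14 to 0.35 for Gpr182 and -0.11 to 0.11 for Ccbl1.

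In APP/PS1 against littermate mice 7 of 240 values changed sign. Apcdd1 was 0.0547 with the region covariates and 0.17 with the fibroblast covariate, and Rabep1 was -0.0268 and -0.0041. Leaving out 1 library gave -0.0778 to 0.295 for Hgf, -0.0235 to 0.0628 for Bcar1 and -1.17 to -0.93 for Gpr182, which was called with DESeq2 (-1.10, adjusted p = 0.00731) and without APP/PS1 female 3. The 3 alternatives from marker levels were added after seeing the data, that with the fibroblast markers once the correlation of Gpr182 with them was known. Snhg18, Gpr182 and Hgf rest on few reads, which limits their precision.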
